A study of Mus musculus with 18 samples.

Results

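The step from 8 to 16 hours post injury (HPI) of the embryonic dorsal root ganglion (eDRG) spot culture was described from 6 of the 18 libraries of the series, those titled 16HPI with replicates 1 to 3 and those titled 8HPI with replicates 1 to 3. A gene entered with a level over 1 CPM (counts on the gene scaled to a common library total) in at least 3 of the 18 libraries, which 13771 of the 47643 listed genes did (28.9%). Dorsal root ganglia of CD-1 mouse embryos were plated as spots and kept in culture with nerve growth factor and FDU (5-fluorodeoxyuridine), an inhibitor of cell division that removes dividing non-neuronal cells. Axons of both groups were severed with a blade, and RNA was taken 8 or 16 h later, so that the groups differed by time after axotomy and shared strain, stage, culture and injury. The study places the injury at day in vitro 7 (DIV7), and the labels give DIV7 for the collection of control spots. An uninjured culture of the 16 h age was not analysed here, so time after injury and time in culture cannot be told apart. The series also holds uninjured control cultures and cultures at 1, 3 and 24 HPI, each in 3 replicates. Nothing in the labels says whether replicates were separate cultures or litters, and p-values measure only the spread between these samples.

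Sensory neurons whose peripheral axon is cut answer with a transcriptional program. Immediate early genes and stress-activated kinases act first, and injury transcription factors such as Atf3 then drive growth-associated genes, while genes of mature neuronal function (ion channels, transmitter receptors, synaptic vesicle proteins) commonly decline. Rest, a zinc finger repressor that silences neuronal genes outside the nervous system, is known to take part in injured sensory neurons, and Tgif1 is a corepressor of TGF-beta signalling.

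Counts on genes ranged from 9478891 to 19109874 per library at 8 HPI and from 15400680 to 17071531 at 16 HPI. The shallowest was 8 HPI replicate 2, where 3 counts came to 0.316 CPM, against 0.157 to 0.195 CPM in the other 5. That limit covers counting error only. 16 HPI replicate 1 stood apart: 2.45% of its counts fell on genes of type rRNA, against 0.0145% to 0.107% in the other 5, and 74.8% fell on protein-coding genes, against 79.4% to 84.0%. Results that rest on it are given with and without it. The label of sensory neurons was matched by 10 of 10 marker genes over 3 counts, with a summed level of 9643 to 10159 CPM at 8 HPI and 8578 to 9781 CPM at 16 HPI. Summed markers of satellite glia and Schwann cells came to 266 to 319 CPM at 8 HPI and 242 to 296 CPM at 16 HPI. Those of myeloid cells came to 7.01 to 7.91 and 6.88 to 7.83 CPM, those of fibroblasts to 6.86 to 24.5 and 7.06 to 21.8 CPM, and those of endothelial cells to at most 2.11 CPM in any of the 6. Erythroid markers came to 5.02 to 7.69 CPM at 8 HPI and 2.86 to 15.9 CPM at 16 HPI. In a bulk library, fewer cells of a type and less RNA per cell cannot be told apart.

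Between 8 and 16 HPI, many more genes rose past 2-fold than fell. By edgeR's quasi-likelihood test over all 18 libraries with the replicate number as a block, 110 genes were higher at 16 HPI at an adjusted p under 0.05 and over 2-fold (called, 0.799% of those tested), and 19 were lower (0.138%), 129 in all (0.937%). Of the called genes, 104 of 110 and 19 of 19 moved the same way in all 3 replicate pairs, as 47.9% of all tested genes did. The 3 libraries of one group lay above all 3 of the other for 94 of the 110 (background over all tested genes 9.65%) and for 10 of the 19 (8.06%). The calls were made on these same libraries, so both comparisons follow in part from the selection and are no independent evidence. At any fold, 1005 genes were higher (7.3%) and 1083 lower (7.86%), and the median log2 fold change was 0.46 among the 1005 and −0.27 among the 1083. With all libraries, 2088 genes passed the adjusted p at any fold. Leaving out 8 HPI replicate 3 brought this to 1357, and leaving out 16 HPI replicate 1 to 1369. Called genes were mostly of low level. The median of the mean level in the higher group was 2.61 CPM for the 110 and 2.53 CPM for the 19, and 12 of the 110 were over 10 CPM at 16 HPI. Under 1 CPM in all 3 libraries at 8 HPI were 39 of the 110, which passed the filter through other groups, 16 HPI among them. For Kcnj6 the 3 libraries at 16 HPI sufficed (1.71, 1.19 and 1.03 CPM), with a mean of at most 0.641 CPM in any other group. Such a gene could enter only through its rise, so its call and the counts of 110 and 19 depend in part on the filter. Of the 19, 6 were under 1 CPM in all 3 at 16 HPI.

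**Figure D1:**
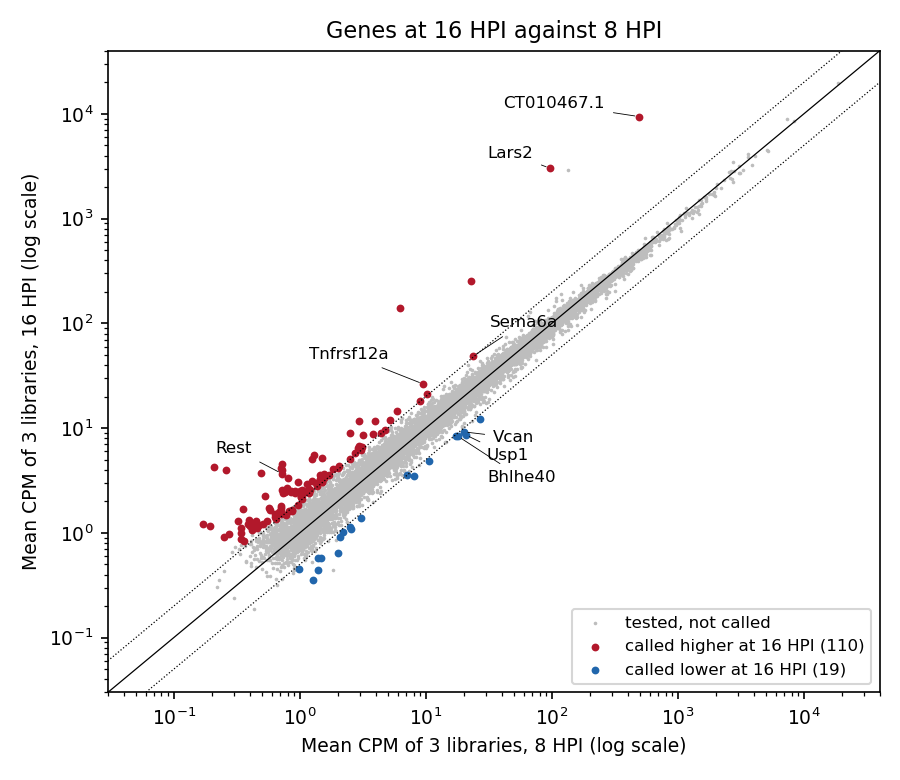
Mean level of each of 13771 tested genes at 8 HPI (horizontal, CPM, log scale) against 16 HPI (vertical, CPM, log scale), each the mean of 3 libraries. Red points are the 110 genes called higher and blue points the 19 called lower, the solid line marks equal levels and the dotted lines a 2-fold difference; most called genes lie at the low end, and Lars2 and CT010467.1 stand far above the rest.

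The 15 largest called rises among genes with a name, over 1 CPM on average and the same direction in every pair, ran from Bpifc down to Peli2. Bpifc, a member of the lipid-binding BPI fold family (ENSMUSG00000050108.12, chromosome 10 of GRCm38 from 85959340 to 86011895, minus strand), had 0.545, 0.531 and 0.405 CPM at 8 HPI and 6.76, 2.27 and 2.27 CPM at 16 HPI, a log2 fold change of 2.89 ± 0.31 (SE, adjusted p = 6.41e-06). Replicate 1 was the highest at 16 HPI, and without it the log2 fold change was 2.499 and still called. Tnfrsf1b, which encodes the second receptor for tumour necrosis factor (ENSMUSG00000028599.10, chromosome 4 from 145213463 to 145246870), had 0.485, 0.743 and 0.961 CPM at 8 HPI and 4.2, 3.74 and 5.68 CPM at 16 HPI, a log2 fold change of 2.66 ± 0.26 (adjusted p = 1.82e-06). Rest (ENSMUSG00000029249.15, chromosome 5 from 77265491 to 77286432) had 0.303, 1.06 and 0.809 CPM at 8 HPI and 4.2, 3.29 and 3.52 CPM at 16 HPI, a log2 fold change of 2.43 ± 0.28 (adjusted p = 1.19e-05). The groups did not overlap for any of the 3 genes.

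Tgif1 (ENSMUSG00000047407.17, chromosome 17 from 70844205 to 70853546) went from 1.15, 1.17 and 1.57 CPM to 5.41, 5.33 and 5.9 CPM (log2 fold change 2.14 ± 0.31, adjusted p = 9.4e-05). B3gnt5, a glycosyltransferase of glycosphingolipid synthesis, had 2.12, 2.65 and 4.05 CPM at 8 HPI and 9.4, 11.2 and 14.6 CPM at 16 HPI (log2 fold change 1.99 ± 0.21). Baz1a, a subunit of chromatin remodelling complexes, had 2.06, 2.12 and 3.34 CPM and then 9.11, 8.17 and 9.63 CPM (1.8 ± 0.17). In all 3 of these genes every library at 16 HPI lay above every library at 8 HPI. Ccnf, which encodes the F-box protein cyclin F, rose from 1.39, 2.02 and 1.11 CPM to 5.7, 5.33 and 4.38 CPM (1.83 ± 0.23). Nts, the neuropeptide neurotensin, rose from 0.667, 0.531 and 0.405 CPM to 3.13, 2.33 and 1.24 CPM (2.01 ± 0.39). Replicate 3 was the lowest of the 16 HPI libraries for Nts and still lay above all 3 at 8 HPI. The others of the 15 were Smim3, Metrnl (a secreted meteorin-like protein), Cfap43, Snx33 (a sorting nexin of endocytosis), Dok7 (the adaptor of the muscle kinase MuSK), Dcn (the matrix proteoglycan decorin) and Peli2, with log2 fold changes between 1.74 for Peli2 and 2.33 for Smim3. Each of the 15 stayed called without any single one of the 6 libraries.

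**Figure D2:**
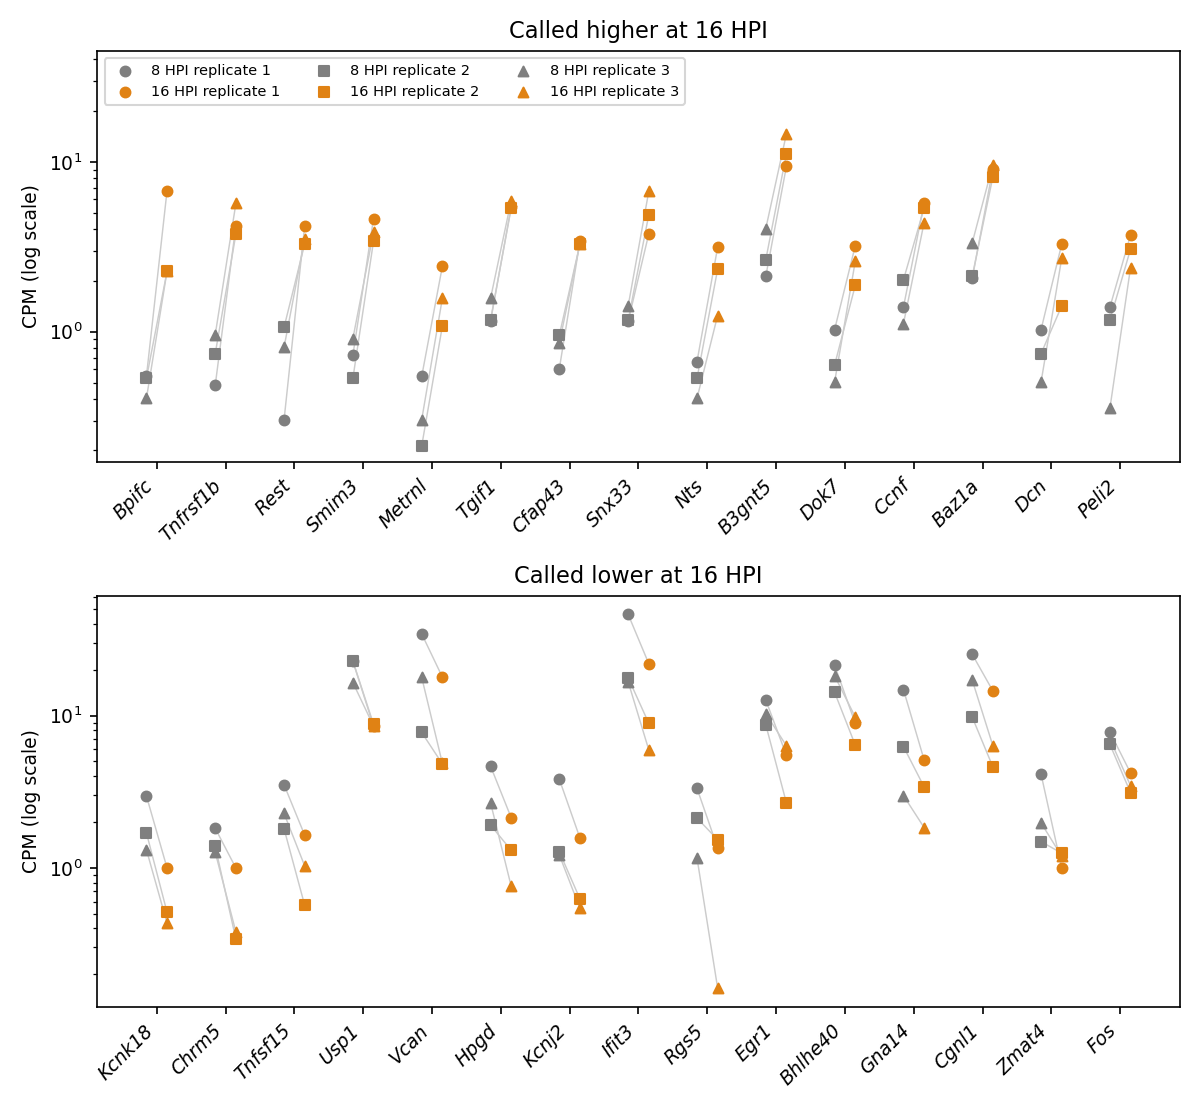
Level (CPM, log scale) of the 15 largest called rises (top) and the 15 largest called falls (bottom), both among genes with a name, over 1 CPM on average and the same direction in every pair, in each of the 6 libraries, grey for 8 HPI and orange for 16 HPI, with a symbol for each replicate and a line joining libraries of the same number. Every line rises in the top panel and falls in the bottom panel, and in genes such as Ifit3, Cgnl1 and Gna14 the replicates differ in level while each falls.

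Binding letters of the injury factors were searched in the promoters of the called genes. RefSeq windows on GRCm38.p6 (250 bases before to 50 after a start) were held for 72 of the 110 higher genes, 94 windows in all, and for 13 of the 19 lower genes. The AP-1 letters TGACTCA or TGAGTCA, each the reverse complement of the other, occurred in 6 of the 94 windows (6.38%) and in 451 of 13063 windows of all tested genes (3.45%). The 6 windows belonged to Bpifc, Dhrs9, Gm11714, Nts and Upp1, the last with a pair of overlapping windows. Dhrs9 was not called without any of 5 libraries (0.82 to 1.36), nor Gm11714 without 8 HPI replicate 3 (1.45). The cyclic AMP element TGACGTCA occurred in 1 of the 94 (Tmem144, called at 1.01 and under 2-fold without 8 HPI replicate 3, at 0.75, or 16 HPI replicate 2, at 0.81; background 3.11%), and the C/EBP-ATF letters TGATGCAA or TTGCATCA in 1 (4930438A08Rik, background 0.658%). None of the 13 windows of lower genes held any of these letters. A match describes letters only, and no binding was measured. The upstream sequences of the 3 genes with names that rose most among those with AP-1 letters are shown, with those letters in capitals, each ending before the annotated gene begins: Bpifc at chr10:86011896-86012110 on the minus strand with the letters at −51 to −45 from the RefSeq start, Nts at chr10:102490487-102490668 on the minus strand at −207 to −201, and Upp1 (uridine phosphorylase) at chr11:9117758-9118007 on the plus strand at −45 to −39.
Bpifc: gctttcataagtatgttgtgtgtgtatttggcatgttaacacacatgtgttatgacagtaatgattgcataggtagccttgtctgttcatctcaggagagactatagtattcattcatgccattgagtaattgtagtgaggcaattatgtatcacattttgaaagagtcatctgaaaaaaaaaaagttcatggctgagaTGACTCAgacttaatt
Nts: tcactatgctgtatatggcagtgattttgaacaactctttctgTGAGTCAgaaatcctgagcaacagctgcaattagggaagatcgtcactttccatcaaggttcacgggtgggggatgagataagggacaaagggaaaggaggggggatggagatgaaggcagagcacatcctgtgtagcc
Upp1: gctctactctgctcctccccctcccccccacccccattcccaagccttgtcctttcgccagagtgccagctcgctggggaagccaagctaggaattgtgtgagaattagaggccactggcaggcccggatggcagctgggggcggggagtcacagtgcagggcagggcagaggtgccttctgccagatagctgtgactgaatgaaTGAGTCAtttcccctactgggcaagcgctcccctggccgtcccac
Upp1 itself rose from 0.121, 0.425 and 0.202 CPM to 0.427, 1.3 and 1.03 CPM (log2 fold change 1.99 ± 0.43, adjusted p = 0.00346), and was no longer called without 8 HPI replicate 3 (1.57).

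The 3 largest called changes of any name were a different kind of result. Lars2, the mitochondrial leucyl-tRNA synthetase, which was on the list of genes known to take up residual rRNA and repeat reads, had 137, 35.6 and 118 CPM at 8 HPI and 4490.3, 4523 and 54.4 CPM at 16 HPI (log2 fold change 4.81 ± 1.20, adjusted p = 0.00871). CT010467.1, annotated as rRNA, had 599, 143 and 734 CPM and then 26874, 1029 and 332 CPM, and its log2 fold change of 3.83 was 1.10 without 16 HPI replicate 1. Both fell in replicate 3 while they rose in replicates 1 and 2, as did Gm24270 (log2 fold change 4.002). Lars2 lost its call without 8 HPI replicate 2 (4.25). Gm24270 and CT010467.1 each lost theirs without any 1 of 4 libraries, namely the 3 at 8 HPI and 16 HPI replicate 1, with values of 2.81 to 4.39 and 1.10 to 4.19. Of the 21 genes on that list, 8 were tested and 3 were higher at an adjusted p under 0.05, the third being Rn7sk (0.33), which did not pass without any of 3 libraries (0.21 to 0.33). None of the 8 passed without 8 HPI replicate 2. The part of rRNA depletion in these changes was not tested.

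Most transcription factors that the study lists for the injury response passed the test. Of its 29, 26 were tested, 16 were higher and 5 lower at an adjusted p under 0.05, and 9 were called higher and 3 lower. As shares of those tested, 61.5% were higher and 19.2% lower at that adjusted p, against 7.3% and 7.86% of all tested genes. Their median log2 fold change was 0.66, against −0.003 over all tested genes. The study chose this list on these samples, so it is no independent evidence of direction. L3mbtl3, a chromatin reader (chromosome 10 from 26274468 to 26375971), rose from 3.76, 4.78 and 3.29 CPM to 13.7, 10.9 and 10.8 CPM (log2 fold change 1.63 ± 0.12, adjusted p = 1.41e-07), the smallest adjusted p among the 129 called genes. Rest and Tgif1 belong to the list. Foxp2, a forkhead repressor, rose from 0.424, 0.743 and 1.21 CPM to 1.57, 3.12 and 3.3 CPM (1.69 ± 0.33). Cebpd (1.73), Cebpa (1.49), Zbtb42 (1.28) and Creb3l2 (1.10) were also called higher. None of the first 3 was over 2 CPM in any of the 6 libraries, and Creb3l2 was 1.06 to 1.92 CPM at 8 HPI and 2.72 to 3.7 CPM at 16 HPI. Cebpd was no longer called without 8 HPI replicate 3 (1.17). Cebpa was not without 8 HPI replicate 3 (1.31) or 16 HPI replicate 3 (1.39), nor Creb3l2 without 16 HPI replicate 1 (0.98). Zbtb42 lost its call without 8 HPI replicates 1 (1.32) or 3 (1.10) or 16 HPI replicate 1 (0.81). Without 8 HPI replicate 3 the count of higher factors on the list was 10 in place of 16, and without 8 HPI replicate 1 or 16 HPI replicate 3 that of lower factors was 3 in place of 5.

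Atf3, the injury factor of the ATF family, was present at 65.9, 63.1 and 64.4 CPM at 8 HPI and at 119, 121 and 115 CPM at 16 HPI, a log2 fold change of 0.87 ± 0.18 (adjusted p = 0.00252) that was short of 2-fold. The spread within each group was far below the difference between them. Tfcp2l1 (0.91), Smad7 (0.77), Runx1 (0.62), Junb (0.60) and Fosl2 (0.36) also passed the test upward. Of these, Tfcp2l1 kept its adjusted p under 0.05 without each library. Fosl2 lost it without 16 HPI replicate 1 (0.25) or 8 HPI replicates 1 (0.34) or 2 (0.29), Smad7 without any of 5 libraries (0.45 to 0.85), and Junb (0.34 to 0.64) and Runx1 (0.45 to 0.58) without any of 4. Downward, Maff (−0.68), a small Maf factor, and Elmsan1 (−0.34) passed beside Egr1, Bhlhe40 and Fos. Maff fell in each pair from 19.1, 15.1 and 17.3 CPM to 13.7, 9.08 and 9.96 CPM, and Elmsan1 did not pass without 8 HPI replicates 1 or 2 or 16 HPI replicates 2 or 3 (−0.21 to −0.35). Arid5a (−0.05), Jun (−0.22), Ddit3 (0.05), Fosb (0.66) and Hes1 (−0.61) did not pass, and Nr4a1, Zbtb16 and Gli3 did not pass the filter on level.

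Of genes of cytokine and growth factor signalling, the receptor Tnfrsf12a (the TWEAK receptor Fn14, which promotes neurite growth, chromosome 17 from 23675445 to 23677468) rose from 10.1, 9.34 and 9.21 CPM to 29.8, 24.3 and 24.9 CPM (log2 fold change 1.46 ± 0.12, adjusted p = 3.07e-07). It was called under every alternative. Of 33 regeneration-associated genes, 27 were tested, 6 were higher and 4 lower at an adjusted p under 0.05 (22.2% and 14.8%, against 7.3% and 7.86% of all tested genes). Beside Rest and Tnfrsf12a, Atf3, Hspb1 (0.83), the microglial growth factor Csf1 (0.63) and Gch1 (0.31) were higher, and Sox4 (−0.53), Klf6 (−0.30), Cacna2d1 (−0.26) and Basp1 (−0.19) were lower. The growth cone gene Gap43 had a log2 fold change of −0.10 (adjusted p = 0.241) and Sox11 one of 0.15 (adjusted p = 0.189). Of 22 genes of gp130 cytokine and STAT signalling, 18 were tested, with 5 higher (27.8%) and 2 lower (11.1%). The interleukin 6 receptor Il6ra was called, with 0.531 to 0.86 CPM at 8 HPI and 1.47 to 2.16 CPM at 16 HPI (1.31 ± 0.28), the kinase Pim1 rose from 7.19 to 12.3 CPM on average (0.81), and the receptor chains Lifr (−0.34) and Il6st (−0.19) were lower. Of 30 genes of TGF-beta and BMP signalling, 22 were tested, 6 were higher (27.3%), led by Tgif1, and 3 were lower (13.6%). That count of 6 was 3 without 8 HPI replicate 1 or 2, or without 16 HPI replicate 2 or 3, and the count of 3 was 1 without 8 HPI replicate 2 or 3 or 16 HPI replicate 3. Of the gp130 list, 3 were higher without 16 HPI replicate 1. Hspb1 lost its adjusted p under 0.05 without 8 HPI replicate 1 (0.66) or 16 HPI replicate 1 (0.69), Gch1 without 16 HPI replicate 3 (0.28) and Cacna2d1 without 16 HPI replicate 2 (−0.20). Basp1 lost it without 8 HPI replicate 2 (−0.18) or 16 HPI replicate 1 (−0.16), and Il6st without 8 HPI replicate 1 (−0.16) or 16 HPI replicate 3 (−0.16).

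Of 56 listed genes of Wnt signalling, 32 were tested, 7 were higher (21.9%, against 7.3% of all tested genes) and 1 was lower (3.12%, against 7.86%). Axin2, a feedback inhibitor and a common readout of beta-catenin signalling (chromosome 11 from 108920349 to 108950783), rose from 0.848, 1.38 and 0.759 CPM to 2.28, 2.1 and 3.19 CPM (log2 fold change 1.41 ± 0.28, adjusted p = 0.00178). The ligand Wnt9a rose from 0.909, 0.531 and 0.809 CPM to 2.14, 2.78 and 2.49 CPM (1.63 ± 0.33). The groups did not overlap for either gene. The receptors Fzd8 (2.92 to 6.47 CPM on average, 1.15) and Fzd6 (1.2 to 2.56 CPM, 1.13) were called higher, and Fzd5 (0.82), Nkd2 (0.70) and Fzd3 (0.32) passed the test short of 2-fold. Nkd2 did not pass without 8 HPI replicate 3 (0.59), nor Fzd3 without replicate 1 of either time (0.32 and 0.28) or 8 HPI replicate 3 (0.28). The ligand Wnt16 went the other way, from 2.12, 1.06 and 1.01 CPM to 0.285, 0.284 and 0.758 CPM (−1.57 ± 0.40), and lost its call without 8 HPI replicate 1 (−1.23) or 16 HPI replicate 1 (−1.22). Against control in the shared fit, the list had a median log2 fold change of −0.15 at 8 h and of −0.008 at 16 h. The called members at 16 h against control were Wnt9a (1.44), Fzd6 (1.11), Axin2 (0.94), Fzd8 (0.50) and Wnt16 (−1.79). Wls, which carries Wnt ligands to the cell surface and was picked after its values were seen, rose from 2.98 to 6.81 CPM on average (1.21).

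Axon guidance genes moved in both directions. Of 69 listed, 55 were tested, with 12 higher and 12 lower (21.8% each, against 7.3% and 7.86% of all tested genes). The called ones were all higher: the semaphorin Sema6a rose from 20.8, 24.7 and 25.4 CPM to 50.1, 42.7 and 52.5 CPM (log2 fold change 1.04 ± 0.13, adjusted p = 3.01e-05). The Robo ligand Slit2 (chromosome 5 from 47983138 to 48307733) rose from 11.6, 9.45 and 9.61 CPM to 25.9, 18.2 and 18.8 CPM (1.03 ± 0.13). The netrin receptor Unc5d (chromosome 8 from 28646717 to 29219636) rose from 13.7, 9.13 and 4.2 CPM to 28.7, 17.5 and 8.55 CPM (1.01 ± 0.10). The Unc5d groups overlapped, since its level differed between replicates, while each replicate rose by a similar factor. All 3 dropped just under 2-fold in some reduced fits, Sema6a without 8 HPI replicate 3 (0.97) or 16 HPI replicate 1 (0.86), Slit2 without 8 HPI replicate 1 (0.97) and Unc5d without 16 HPI replicate 1 (0.97). Ntn4 (1.00), Sema4c (0.92), Sema6c (0.63), Efnb2 (0.61), Efnb1 (0.50) and Plxnb2 (0.50) were among the other higher genes. Among the lower were 4 Eph receptors, Epha4 (−0.68, from 102 to 64.2 CPM on average), Epha6 (−0.49), Epha3 (−0.38) and Epha5 (−0.22), and the semaphorins Sema4a (−0.84), Sema3a (−0.67), Sema5a (−0.41) and Sema3c (−0.40). Epha3 did not pass without any of 3 libraries (−0.29 to −0.32), nor Epha5 without any of 4 (−0.15 to −0.22).

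Of 138 genes of matrix, integrins and metalloproteases, 72 were tested, with 7 higher (9.72%) and 4 lower (5.56%). These shares were near those of all tested genes (7.3% and 7.86%), and the values that follow describe single genes. The integrin chains Itgb5 (1.13 to 2.94 CPM on average, log2 fold change 1.40) and Itga6 (2.02 to 4.17 CPM, 1.02) and the collagen Col20a1 (1.04 to 2.58 CPM, 1.36) were called higher, and Itgav (0.72), the partner chain of Itgb5, and Mmp11 (0.99) passed the test. Itgav did not pass without 8 HPI replicate 3 (0.48) or 16 HPI replicate 1 (0.50). Itgb5 lost its call without 8 HPI replicate 3 (1.42) and Itga6 without 8 HPI replicate 3 (0.86) or 16 HPI replicate 1 (0.80). Without 8 HPI replicate 3, 2 genes of the list were higher in place of 7, and without 16 HPI replicate 1 there were 4. Lower genes of the list numbered 2 without 8 HPI replicate 1 or without 16 HPI replicate 2 or 3. Vcan, a large matrix proteoglycan outside that count, was called lower, from 34.5, 7.75 and 17.9 CPM to 17.9, 4.82 and 4.87 CPM (−1.22 ± 0.22), and dropped under 2-fold without 8 HPI replicate 3 (−0.90). Dcn, called higher, belongs to the fibroblast markers, whose 6 tested members had median log2 ratios of 1.03, −1.33 and 1.42 in replicates 1, 2 and 3. Summed, the fibroblast markers went from 11.7 to 21.8, from 24.5 to 7.06 and from 6.86 to 18.9 CPM, and Dcn from 1.03 to 3.28, from 0.743 to 1.42 and from 0.506 to 2.71 CPM, so that Dcn rose in replicate 2 while the summed markers fell. The part of such cells in its rise was not tested.

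Some histone and cell division genes rose, and none of either list was lower at an adjusted p under 0.05. Of 80 histone genes, 47 were tested and 14 were higher (29.8%, against 7.3% of all tested genes), with a median log2 fold change of 0.35 over those tested. The linker histone Hist1h1d rose from 5.03, 4.35 and 3.79 CPM to 7.05, 7.15 and 8.93 CPM (0.85 ± 0.14, adjusted p = 3.01e-04), and its groups did not overlap. Hist1h4a (0.67) and Hist3h2ba (0.58) were further members. Hist1h2bl was called (1.18), at 0.506 to 0.956 CPM at 8 HPI and 1.3 to 1.71 CPM at 16 HPI, and lost its call without any of 4 libraries (0.92 to 1.17). The count of 14 fell to 9 without 8 HPI replicate 1, and to 8 without 8 HPI replicate 3 or without 16 HPI replicate 1. Of 30 cell division genes, 22 were tested and 4 were higher (18.2%), the cyclins Ccne1 (0.59) and Ccne2 (0.62), the mitotic kinesin Cenpe (0.73) and thymidylate synthase Tyms (0.70), the enzyme that the metabolite of FDU blocks. Tyms was at an adjusted p of 0.0463 and did not pass without any single library (0.59 to 0.83), Ccne1 did not without 16 HPI replicate 1 (0.49), and Ccne2 did not without 8 HPI replicate 1 (0.52). With replicate 1 of either time left out, 2 of the list were higher. Of the 80 tested ribosomal protein genes, 8 were higher (10%, near the 7.3% of all genes) and none lower, with log2 fold changes of 0.18 to 0.29 for the 8 and a median of 0.10 over the list. Without 8 HPI replicate 1, 1 was higher, without 16 HPI replicate 1, 3 were, and without replicate 2 of either time, 4 were.

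Of the 19 genes called lower, Usp1, a deubiquitinase of DNA repair (ENSMUSG00000028560.11, chromosome 4 from 98923810 to 98935543), had much the same level in the 3 libraries at 16 HPI. It had 22.8, 22.8 and 16.5 CPM at 8 HPI and 8.54, 8.79 and 8.55 CPM at 16 HPI, a log2 fold change of −1.26 ± 0.14 (adjusted p = 6.85e-06), and it was called under every alternative. Ifit3, an interferon-induced gene, fell from 46.3, 17.7 and 16.7 CPM to 21.9, 8.9 and 5.95 CPM (−1.18 ± 0.17). Its replicate 1 was the highest at each time and fell alongside the others, so the groups overlapped. Of 20 interferon response genes, 10 were tested and 3 were lower (30%, against 7.86% of all tested genes), Ifit3, Stat2 (−0.59) and Ifit2 (−0.45), and that count of 3 was found without each library. The median over the 10 was 0.035, of the other sign. Tnfsf15, a ligand of the tumour necrosis factor family, fell from 2.53 to 1.08 CPM on average (−1.26). Hpgd (−1.20), the prostaglandin-degrading dehydrogenase, Ldoc1 (−1.17), the G protein regulator Rgs5 (−1.16), the G protein chain Gna14 (−1.11), the junction protein Cgnl1 (−1.09), Zmat4 (−1.08) and Txlnb (−1.06) were the others outside the gene groups. Leaving out a library ended the call of Hpgd (−0.74 to −1.25), Ldoc1 (−0.88 to −1.24), Rgs5 (−0.92 to −1.11), Gna14 (−0.84 and −0.94), Cgnl1 (−0.92), Zmat4 (−0.71 and −0.83) and Txlnb (−0.66 to −1.14). These losses came from 8 HPI replicate 1 or 16 HPI replicate 1 for Gna14 and Zmat4, and from 8 HPI replicate 3 for Cgnl1.

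Immediate early genes, which neurons switch on within minutes of activity or injury, moved in both directions. Of 27 listed, 19 were tested, with 7 lower (36.8%, against 7.86% of all tested genes) and 3 higher (15.8%, against 7.3%). Egr1, a zinc finger factor, fell from 12.7, 8.71 and 10.3 CPM to 5.48, 2.67 and 6.33 CPM (log2 fold change −1.14 ± 0.19, adjusted p = 3.32e-04). Fos, the AP-1 subunit (chromosome 12 from 85473890 to 85477273), fell from 7.82, 6.48 and 7.03 CPM to 4.2, 3.12 and 3.46 CPM (−1.002 ± 0.24, adjusted p = 0.00748). The groups did not overlap for either. Maff, Ier3 (−0.54), Ier2 (−0.53), Btg2 (−0.51) and Klf6 (−0.30) fell by less than 2-fold, of which Ier2 did not pass without any of 3 libraries (−0.22 to −0.53) and Btg2 without any of 5 (−0.30 to −0.54), and Ier5 (1.01), Junb and Fosl2 rose. Bhlhe40, a helix-loop-helix repressor of the clock and of activity responses (chromosome 6 from 108660629 to 108666925), fell from 21.4, 14.2 and 18.3 CPM to 8.9, 6.41 and 9.8 CPM (−1.11 ± 0.12, adjusted p = 7.44e-06). Fos lay at the 2-fold line and was under it without 8 HPI replicate 1 (−0.82) or 16 HPI replicates 2 (−0.96) or 3 (−0.84). Egr1 was under it without 8 HPI replicate 1 (−0.97) or 16 HPI replicate 2 (−0.98), Bhlhe40 without 8 HPI replicate 1 (−0.96), and Ier5 without 8 HPI replicates 2 (0.96) or 3 (0.99) or 16 HPI replicate 3 (0.88). Without 8 HPI replicate 1 or 16 HPI replicate 3, 4 of the list were lower in place of 7, and without 8 HPI replicate 2 or 16 HPI replicate 1, 1 was higher in place of 3.

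Among genes of neuronal excitability, more passed the test downward than upward. Of 44 G protein-coupled receptors of neuromodulators, 31 were tested, 12 were lower (38.7%, against 7.86% of all tested genes) and none higher (against 7.3%), with a median log2 fold change of −0.37. The kappa opioid receptor Oprk1 (chromosome 1 from 5588466 to 5606131) fell most among the genes called lower, from 2.12, 0.956 and 0.759 CPM to 0.57, 0.284 and 0.216 CPM (−1.76 ± 0.41, adjusted p = 0.00585). The mu opioid receptor Oprm1 fell from 43.2, 21.2 and 21.7 CPM to 28.9, 12.8 and 15.3 CPM (−0.59 ± 0.08, adjusted p = 6.06e-05), and the nociceptin receptor Oprl1 from 36.8, 25.1 and 23.1 CPM to 20.4, 16.6 and 15.7 CPM (−0.67 ± 0.11). Replicate 1 was the highest of the 3 at both times for all 3 opioid receptors. The glutamate receptors Grm8 (−0.66), Grm5 (−0.49) and Grm7 (−0.38), the neuropeptide Y receptor Npy2r (−0.89) and the prostacyclin receptor Ptgir (−0.37) also fell. Npy2r did not pass without 8 HPI replicate 1 (−0.84) or 16 HPI replicate 1 (−0.79), nor Grm5 without 8 HPI replicate 3 (−0.39) or 16 HPI replicate 1 (−0.43). Chrm5, a muscarinic receptor outside the list, was called (−1.41, from 1.49 to 0.572 CPM on average). The neurokinin receptor Tacr1, picked after its values were seen, went the other way (1.07, from 1.49 to 3.06 CPM), and dropped under 2-fold without 8 HPI replicate 3 (0.83) or 16 HPI replicate 2 (0.99).

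Of 18 listed sodium channel genes, 14 were tested and 11 were lower (78.6%, against 7.86% of all tested genes). None was higher, and the median was −0.28. The list took in the epithelial channel family Scnn1 and the leak channel Nalcn beside the voltage-gated subunits. Scn1a fell from 62.1, 60.8 and 70.3 CPM to 44.4, 37.4 and 55.5 CPM (log2 fold change −0.50 ± 0.07, adjusted p = 7.4e-05), without overlap of the groups. Scn9a, the nociceptor channel Nav1.7, fell from 589, 459 and 473 CPM to 475, 363 and 392 CPM (−0.31 ± 0.06), and Scn10a (−0.23) and Scn11a (−0.43) fell by similar amounts. Scn10a did not pass without 8 HPI replicates 1 (−0.22) or 2 (−0.20) or 16 HPI replicate 3 (−0.16), nor Scn11a without replicate 1 at either time (−0.30 and −0.41) or 16 HPI replicate 3 (−0.38). Of 93 potassium channel genes, 55 were tested, with 18 lower (32.7%) and 4 higher (7.27%, close to the 7.3% of all tested genes). The tandem-pore channel Kcnk18 (TRESK, chromosome 19 from 59219214 to 59237374) fell from 2.97, 1.7 and 1.32 CPM to 0.997, 0.51 and 0.433 CPM (−1.54 ± 0.34, adjusted p = 0.00413), and the inward rectifier Kcnj2 from 3.82, 1.27 and 1.21 CPM to 1.57, 0.624 and 0.541 CPM (−1.18 ± 0.34). Kcnj6, another inward rectifier, rose from 0.242, 0.319 and 0.405 CPM to 1.71, 1.19 and 1.03 CPM (1.95 ± 0.46). Kcnk18 lost its call without 16 HPI replicate 1 (−1.30), and Kcnj2 without that library (−0.88) or 8 HPI replicate 3 (−1.07). Without 16 HPI replicate 1, 11 potassium channel genes were lower in place of 18, and without 8 HPI replicate 3, 2 were higher in place of 4.

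Of 60 ligand-gated receptor subunits, 38 were tested, 13 were lower (34.2%, against 7.86% of all tested genes) and 1 was higher (2.63%, against 7.3%), with a median of −0.24. The AMPA receptor subunit Gria1 fell from 9.03, 6.8 and 6.27 CPM to 5.7, 3.86 and 2.22 CPM (log2 fold change −0.98 ± 0.20, adjusted p = 0.00193), and its groups did not overlap. Grin3a (−0.56) and the nicotinic subunit Chrna7 (−0.43) were further lower members, and the kainate receptor subunit Grik3 was higher (0.90). The count of 13 was 8 without 8 HPI replicate 1. Of 27 tested sensory transduction channels of 52, 8 were lower (29.6%) and 1 higher (3.7%): the cold channel Trpm8 fell from 36.4 to 24.5 CPM on average (−0.56), Trpv1, the heat and capsaicin channel, from 2.05 to 1.2 CPM (−0.75), and the mechanosensitive Piezo1 rose from 9.3 to 13.6 CPM (0.55). Trpv1 did not pass without any of 5 libraries (−0.64 to −0.92), nor Piezo1 without 16 HPI replicate 2 (0.43), and 5 of the list were lower without 8 HPI replicate 2. Of 20 tested calcium channel genes of 26, 6 were lower (30%) and none higher, with Cacng8 (−0.86) the farthest from 0, and without replicate 1 at either time 3 were lower. The peptide gene Calca, a marker of peptidergic nociceptors, was 510, 142 and 174 CPM at 8 HPI and 442, 108 and 126 CPM at 16 HPI (−0.35), and it did not pass without 8 HPI replicate 3 (−0.28).

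Some presynaptic and cytoskeletal genes were lower by small amounts. Of 35 tested synaptic vesicle and SNARE genes of 36, 12 were lower (34.3%, against 7.86% of all tested genes) and none higher, with a median of −0.14, led by Sv2b (364 to 283 CPM on average, −0.38), Syt2 (−0.33) and Sv2c (−0.33). Of 29 cytoskeletal genes, all tested, 13 were lower (44.8%) and 1 higher (3.45%, against 7.3%), with a median of −0.17. Tubb3, the neuronal beta-tubulin, fell from 2836, 2893 and 2564 CPM to 2463, 2398 and 1863 CPM (−0.31 ± 0.05, adjusted p = 3.5e-04). Map2, a dendritic microtubule protein, was the exception (0.21), and it did not pass without 8 HPI replicate 3 (0.17) or 16 HPI replicate 1 (0.19). Leaving out 8 HPI replicate 3 left 7 lower synaptic and 8 lower cytoskeletal genes, and leaving out 16 HPI replicate 3 left 7 lower cytoskeletal genes. Of the 10 sensory neuron markers, 5 were lower and none higher, with a median of −0.14, and 3 were lower without 8 HPI replicate 3. The part of this marker level in the lower groups was not tested. Of 27 identity factors of sensory neurons, 21 were tested, 5 (23.8%) were lower (Etv1 −0.47, Hoxd1 −0.45, Maf −0.38, Etv5 −0.33, Prdm12 −0.17) and 2 higher (Runx1, Zeb2 0.33). Prdm12 did not pass without any of 5 libraries (−0.12 to −0.18), nor Runx1 without any of 4 (0.45 to 0.58).

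**Figure D3:**
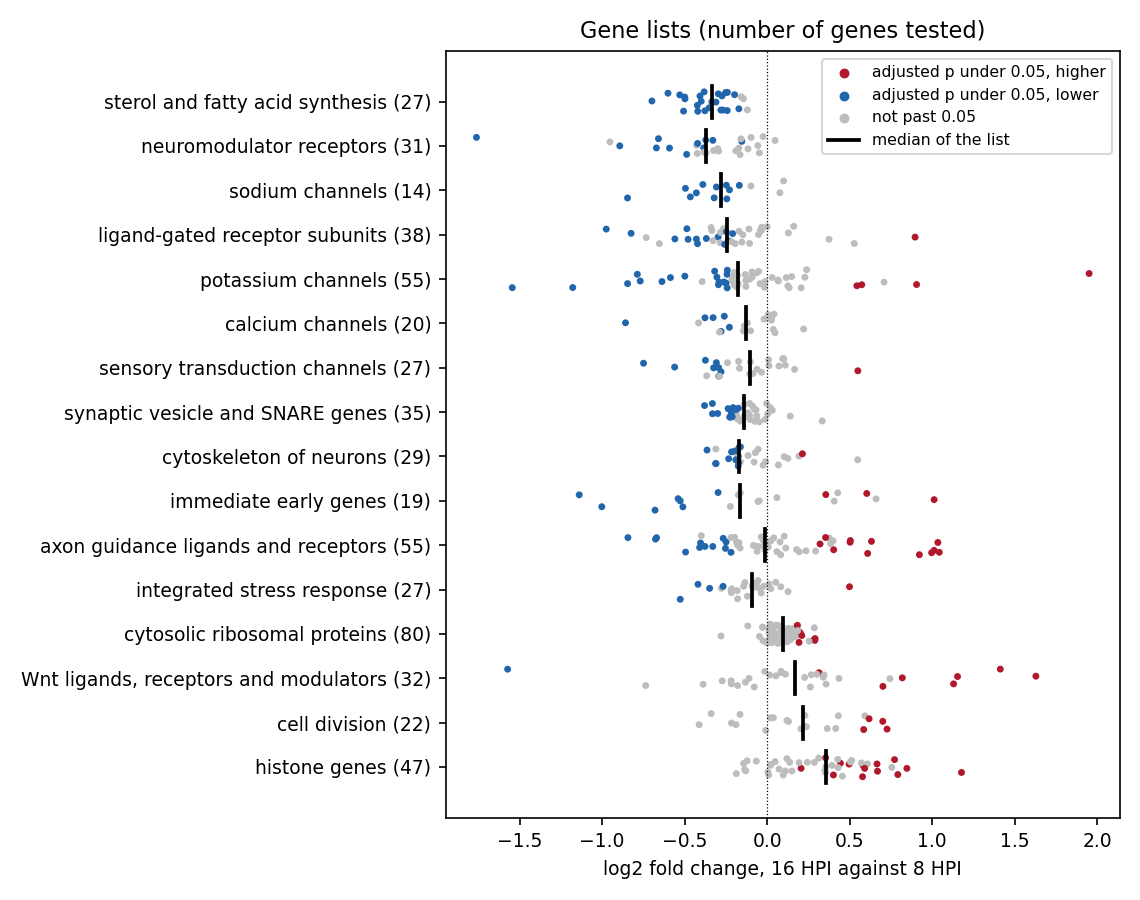
Log2 fold change from 8 to 16 HPI of each tested gene of 16 lists (points), with the number of tested genes in brackets, the median of each list as a black bar and the median of all genes as a dotted line. Red and blue points passed an adjusted p of 0.05 upward and downward; all 27 sterol and fatty acid genes lie left of 0, and the histone, cell division and ribosomal protein lists hold no blue point.

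The list with the most uniform movement was that of cholesterol and fatty acid synthesis, whose enzymes are controlled together by the SREBP factors. All 27 listed genes were tested, all 27 had a negative log2 fold change, and 24 were lower at an adjusted p under 0.05 (88.9%, against 7.86% of all tested genes), with a median of −0.34. None was called, since none fell past 2-fold. The sterol carrier Stard4 fell from 157, 176 and 146 CPM to 93.8, 91 and 107 CPM (−0.70 ± 0.09, adjusted p = 3.54e-05), and Insig1, the sterol sensor that holds SREBP in the endoplasmic reticulum, from 287, 274 and 262 CPM to 177, 193 and 200 CPM (−0.53 ± 0.07). The 3 libraries at 16 HPI lay below all 3 at 8 HPI for both genes. Msmo1 (−0.60), Hsd17b7 (−0.50), Scd1 (−0.50), Srebf1 (−0.42), Fasn (−0.41) and Hmgcs1 (−0.27) fell as well. Srebf2 (−0.16, adjusted p = 0.0625), Dhcr7 (−0.14) and Fdft1 (−0.12) were the 3 that did not pass. The number lower was 21 to 24 without each of the 6 libraries in turn, and 22 without 16 HPI replicate 1. Against control in the shared fit, the list had a median of 0.09 at 8 h, of −0.24 at 16 h and of −0.32 at 24 h. The sterol element letters TCACCCCAC or GTGGGGTGA, searched after the values were seen, occurred in 1 of 23 promoter windows of 18 of these genes (Hmgcs1) and in 0.589% of all windows.

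**Figure D4:**
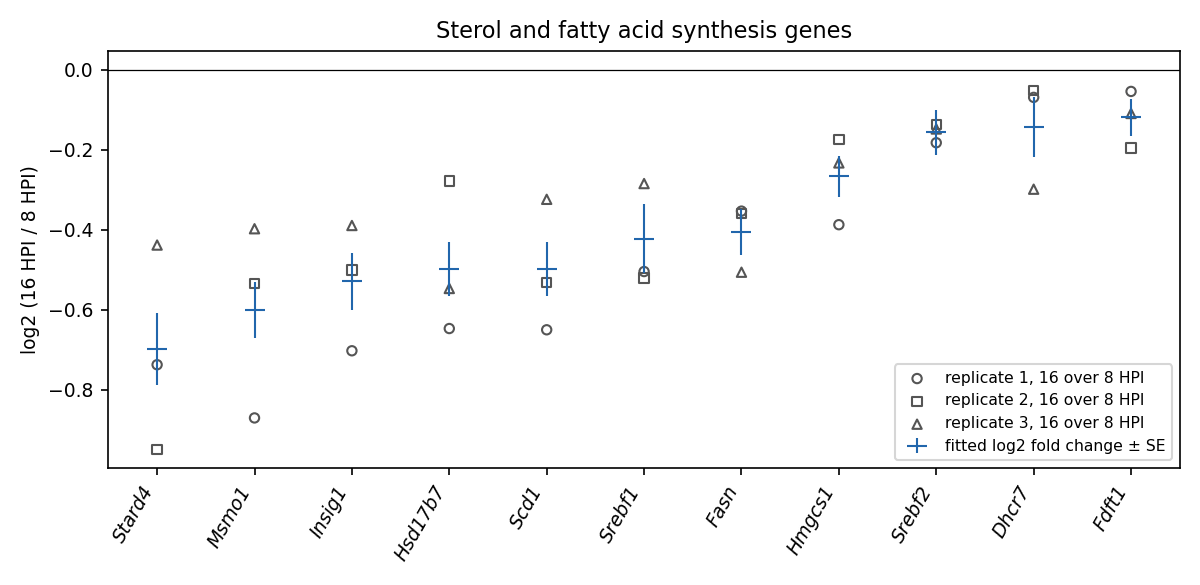
Log2 ratio of 16 HPI over 8 HPI in each replicate (open symbols) and fitted log2 fold change with its standard error (blue) for 11 genes of sterol and fatty acid synthesis named in the text, out of 27, ordered by the fitted value. Every symbol lies below 0, from Stard4 at −0.70 (fitted) to Fdft1 at −0.12.

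Other time points place the step in the course of the response, though the comparisons with control share the 8 and 16 HPI libraries. Against control, the 110 higher genes had a median log2 fold change of −0.18 at 8 h, of 1.20 at 16 h and of 0.48 at 24 h, and the 19 lower genes one of 0.13, −1.09 and −0.70. At 24 HPI, 31 of the 110 (28.2%) were called higher against control, where 0.639% of all tested genes were. Of the 19, 4 (21.1%) were called lower, where 0.182% were. The 24 HPI libraries were not part of the 16 against 8 HPI contrast, but they entered the level filter and the shared fit. These shares are therefore no independent evidence. Mean levels of Rest were 0.879 CPM in control and 0.725, 3.67 and 1.02 CPM at 8, 16 and 24 h, and its log2 fold change against control was 2.06 (adjusted p = 7.87e-06) at 16 HPI and 0.25 (adjusted p = 0.648) at 24 HPI. L3mbtl3 showed a like course of means, 5.91, 3.94, 11.8 and 5.28 CPM. Tnfrsf12a had 5.63, 9.56, 26.4 and 12.5 CPM, and at 24 HPI was still above control (1.14, adjusted p = 1.1e-05). Nts (0.351, 0.534, 2.23 and 2.62 CPM), Slit2 (10.6, 10.2, 21.0 and 19.5 CPM) and Unc5d (8.04, 9.01, 18.2 and 17.2 CPM) had levels at 24 HPI near those at 16 HPI. Among the lower genes, Fos had means of 1.11 CPM in control and of 7.11, 3.59 and 2.68 CPM at 8, 16 and 24 h. Egr1 (2.42, 10.6, 4.83 and 3.48 CPM) and Bhlhe40 (7.3, 18, 8.37 and 5.92 CPM) also had their highest mean at 8 HPI among these 4 groups, whereas Usp1 was 14.4, 20.7, 8.63 and 9.83 CPM and so lay below control at 16 and 24 HPI.

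**Figure D5:**
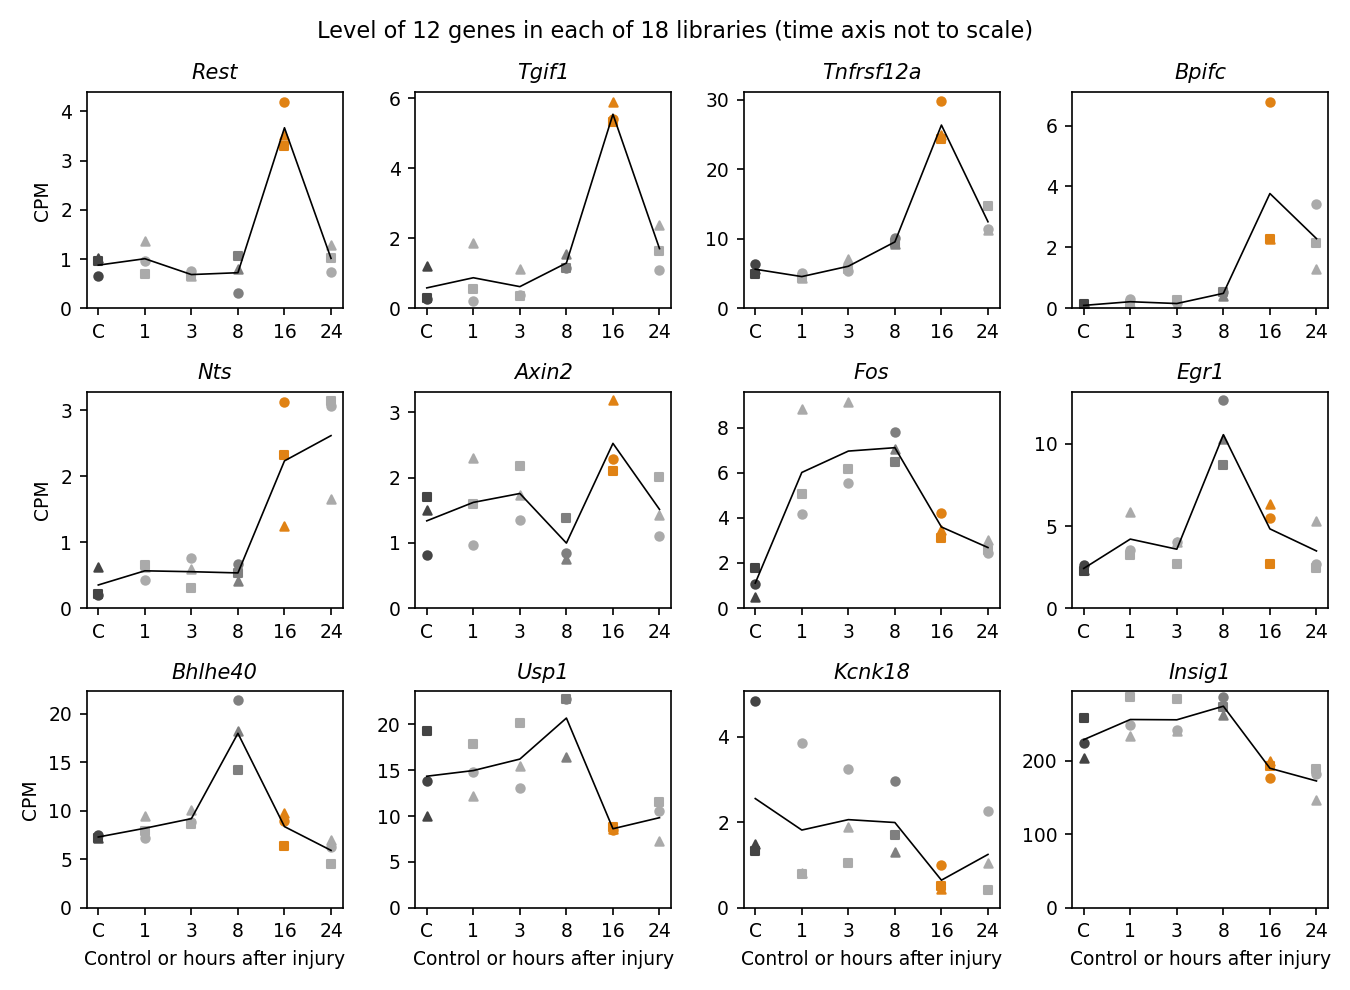
Level (CPM, vertical, from 0) of 12 genes in control cultures (C) and at 1, 3, 8, 16 and 24 HPI (horizontal, not to scale), with each library as a symbol (circle, square and triangle for replicates 1, 2 and 3) and a line through the group means. The 3 orange symbols at 16 HPI stand above all other libraries for Rest, Tgif1 and Tnfrsf12a, and Fos, Egr1 and Bhlhe40 are lower at 16 than at 8 HPI.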

How the data were processed

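The 18 libraries (3 per group) came as counts per gene. The authors deposited raw counts: per the study's methods the reads were trimmed with cutadapt, aligned with STAR to mm10 and counted with featureCounts on GENCODE vM20. The submitters' processing notes name HTSeq, and each table closes with the 5 entries of htseq-count, which were left out here. The labels name rRNA depletion with SMARTer cDNA synthesis and the methods another cDNA kit, and whether counting used strand is not given in the sources used here, so antisense and overlapping genes cannot be separated.

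GENCODE vM21 on GRCm38 named 47224 of 47643 identifiers. The counts were normalized by TMM and fitted with edgeR 4.0.16 in R 4.3.3 by one quasi-likelihood model over 18 libraries with terms for time and replicate number. Tests were two-sided with Benjamini-Hochberg adjustment over 13771 genes. A call needed an adjusted p under 0.05 and a log2 fold change past 1. CPM values use TMM-scaled library sizes, and ratios within a replicate a prior count of 2. The replicate numbers paired the libraries: deviations of same-numbered libraries from their group means correlated by 0.484 to 0.765 over 45 pairs and those of different numbers by −0.577 to −0.042. Deviations within a group cancel out, so the negative values follow from the positive ones and are no separate evidence. No 2 libraries held identical counts. In a simulation of 16 against 8 HPI over 13771 genes, the fit recovered 198 of 200 genes set to a 3-fold change and made 2 false calls. The changed genes were drawn only from those above a floor on mean simulated counts. Recovery of genes under that floor, or of changes nearer 2-fold, was not tested.

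Named genes were the 15 largest called in each direction (named symbol, mean over 1 CPM, same direction in 3 replicates), the 3 largest of any name, called members of the gene lists and the 29 factors of the study. The comparison, lists and rule were chosen with earlier results of these data known. Alternatives were DESeq2 1.42.0 (size factors, Wald test), 2 other filters, no replicate block, the 6 libraries alone, rRNA and mitochondrial genes left out, a GC and length correction, and each library left out. Replicate 1 left out at every time was added after the data were seen. Motif letters were searched in RefSeq windows, matched by symbol. Some members of the lists are counted but not reported here by name.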

Additional observations from a re-analysis of the deposited data

Results flagged for a closer look

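Reads outside the gene counts exceeded the range of the 3 control libraries in several of the 6 libraries. Reads that overlapped more than one gene made up at most 3.02% of all counts in a control library. They made up 3.09% in 8 HPI replicate 1, 3.23% in 8 HPI replicate 3, 5.11% in 16 HPI replicate 1, 3.57% in 16 HPI replicate 2 and 3.15% in 16 HPI replicate 3. Reads that aligned to several places made up at most 16.2% in a control library, and 19.8% in 8 HPI replicate 2, 17.4% in 16 HPI replicate 1 and 17.0% in 16 HPI replicate 2. These values do not enter the fits.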

How the results depend on the processing

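With the main settings, 110 genes were called higher and 19 lower, and 2088 passed the adjusted p at any fold. Without the replicate block these counts were 35, 2 and 207. With a filter of over 1 CPM in all 6 libraries, 12112 genes were tested, 38 were called higher and 7 lower, and 1961 passed at any fold. Only 43 of the 129 calls were shared with that filter, so most calls rest on genes at or under 1 CPM in some of the 6 libraries. Leaving out each library in turn gave 77 to 121 higher, 16 to 24 lower and 1357 to 1744 at any fold. Leaving out replicate 1 at every time gave 77, 16 and 826, with 71 of the 129 calls shared, and fits 4 libraries of this step. The other alternatives, DESeq2's Wald test among them (77 and 16), gave counts within 1.5 times those reported. No called gene, and no list member past the adjusted p, reversed its direction under any alternative. Of the 129 calls, 22 held in all and 50 without each single library. Without the replicate block, 5 of 24 sterol genes, 1 of 11 sodium channel genes and 1 of 12 neuromodulator receptors were lower, and with replicate 1 left out at every time 18, 9 and 6. Other lists also depended on the block: without it 1 immediate early gene was higher and 0 were lower, in place of 3 and 7. Of the factors listed by the study, 3 were then higher and 1 lower, in place of 16 and 5. Of the 110 higher genes, 59 were under 3 CPM at 16 HPI.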

Other observations

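Over all tested genes, 7.3% were higher and 7.86% lower at an adjusted p under 0.05. Of 27 tested genes of the integrated stress response, 4 were lower (14.8%) and 1 higher (3.7%), and 2 were lower without 8 HPI replicate 1. Chac1, a glutathione-degrading enzyme and Atf4 target, fell from 117, 145 and 141 CPM to 79.3, 99.3 and 101 CPM (log2 fold change −0.53 ± 0.06, adjusted p = 1.87e-05), while Ppp1r15a, which reverses the arrest of translation, rose from 92.5, 134 and 134 CPM to 154, 173 and 174 CPM (0.50), a call at this threshold that was lost without 16 HPI replicate 1 (0.29). Of 16 tested Nrf2 genes, Srxn1, the enzyme that repairs peroxiredoxins, rose from 108, 112 and 103 CPM to 187, 176 and 163 CPM (0.70 ± 0.07, adjusted p = 1.67e-06), and 2 were higher and 2 lower in all (12.5% each), the cystine transporter Slc7a11 among the latter (−0.35). Of 29 glycolysis and hypoxia genes, all tested, the shares were near those of all genes: 2 were higher (6.9%), the glucose transporter Slc2a1 (0.56) and Ndrg1 (0.63), and 3 were lower (10.3%), with Egln3 (−0.52), an oxygen-sensing hydroxylase, the farthest from 0. The count of 3 was 5 without 16 HPI replicate 3.

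Of 16 tested feedback inhibitors of MAP kinases, 3 were higher (18.8%) and 4 lower (25%). The phosphatase Dusp4 rose from 7.21, 5.42 and 6.93 CPM to 15.9, 10.04 and 11.5 CPM (0.89 ± 0.17), and the phosphatases Dusp8 (103 to 70.5 CPM on average, −0.55) and Dusp10 (−0.44) fell. The count of 3 was 1 without 8 HPI replicate 3 or 16 HPI replicate 1, and the count of 4 was 2 without 8 HPI replicate 3 or 16 HPI replicate 2. Of 13 tested neurotrophic factor and receptor genes, 2 were lower (15.4%). Hepatocyte growth factor Hgf fell from 62.1, 33.6 and 29.3 CPM to 40.7, 19.8 and 15.9 CPM (−0.74 ± 0.10, adjusted p = 5.3e-05) and the neurotrophin receptor Ngfr from 1284 to 1006 CPM on average (−0.36). The pro-apoptotic Bmf rose from 1.08 to 2.06 CPM (0.90). It did not pass without 8 HPI replicate 3 (0.84).

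In the other lists, of 14 tested bZIP factors of injury, 5 were higher (35.7%) and 2 lower (14.3%), and without 8 HPI replicate 3, 3 were higher. Of 24 p53 targets, 2 were higher, Phlda3 (0.71) among them, and 1 lower. Of 24 heat shock genes, 2 were higher and 1 lower, and of 13 BCL2 family genes likewise. Of 18 neuropeptide and granin genes, 1 was higher (Nts) and 2 lower. Of 18 genes of DLK-JNK signalling and axon degeneration, and of 81 respiratory chain genes of the nucleus, 2 were higher and 2 lower. Of 12 chemokine and interleukin genes, 1 was higher and 1 lower, and of 20 tRNA synthetases 1 was lower. Apart from the bZIP factors, shares in these lists ran from 0% to 15.4% higher and from 2.47% to 11.1% lower, and each of these counts lay between 0 and 3 without any 1 library. The adjusted p of the 13 tested mitochondrially encoded genes ran from 0.406 for mt-Tp to 0.981 for mt-Co1 by edgeR's test.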
